A study of Mus musculus with 7 samples.

Results

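Rgs5 cells of the mesenteric lymph node (mLN) were defined as stromal cells (SCs) that carried transcripts of Rgs5, a regulator of G protein signalling widely used to mark pericytes. Cells were kept if they had between 1000 and 4600 genes detected and no more than 4.5% of mitochondrial transcripts. A kept cell belonged to the Rgs5 cells if it had 0 counts of the endothelial gene Pecam1, at least 2 of Rgs5, fewer than 3 of the contractile genes Myh11, Actg2 and Cnn1 together, and fewer than 10 of the chemokine gene Ccl19. This gave 561 of 13197 kept cells, namely 180, 187, 40, 105 and 49 in age order. The nodes came from BALB/c mice housed specific pathogen free, taken on days 0, 10, 24, 56 and 300 after birth, with no treatment named. Nodes were digested, and cells negative for CD45 (blood cells) and CD24 were sorted and sequenced with droplet 3′ chemistry that counts each captured molecule by a unique molecular identifier (UMI). The 7 labelled samples form 5 ages, and since the cell names do not separate the libraries of D56 or of D300, each age was 1 sample. Sex and the number of animals per age were not in the labels, and nothing in the cell names allows barcodes shared between libraries to be counted.

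Pericytes wrap the endothelium of capillaries and small venules and share its basement membrane. They depend on platelet-derived growth factor signalling through PDGFRβ and on Notch signalling from the endothelium, chiefly through NOTCH3, and they adjust their tone through receptors for vasoactive peptides and potassium channels. In lymph nodes they lie beside contractile smooth muscle cells on larger vessels and beside fibroblastic reticular cells (FRCs), which carry Ccl19 and Ccl21a and surround high endothelial venules.

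Another 3 classes of the same kept cells served for comparison. Contractile cells had 0 counts of Pecam1 and at least 3 of Myh11, Actg2 and Cnn1 together (275 cells, 198, 31, 16, 25 and 5 by age). Ccl19-high cells had 0 of Pecam1, at least 10 of Ccl19 and fewer than 3 of the contractile genes (1245 cells). Pi16 cells had at least 2 counts of Pi16, a gene of CD34-positive fibroblasts around vessels, and none of the limits met by the other classes (2375 cells). The Rgs5 cells held 1400528, 1299918, 252722, 611976 and 231593 UMIs in age order, and their median UMI count per cell was 7426 at D0 and 3933 at D300. Levels are given as CPM, the counts of a gene scaled to a library of 1000000 summed counts for a class at an age, and lists of 5 values run from D0 to D300.

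Some ages stood apart. At D10, 46.2% of kept cells carried a UMI of a Y-linked gene and 21.0% one of Xist, while at the other ages at most 0.108% and at least 94.8% did, so D10 alone held cells of both sexes. Of the 187 Rgs5 cells at D10, 37 carried Xist without a Y-linked UMI. Transcripts of 8 pancreatic acinar genes summed to 834 CPM at D0 and 886 CPM at D24 in the Rgs5 cells, with 787 and 925 CPM in contractile cells, and to at most 10.0 CPM at the other ages. The sum of 16 genes induced by tissue dissociation was 22934, 18507, 42018, 50572 and 58054 CPM in the Rgs5 cells. What part these had in the differences between ages was not tested.

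The first question was whether cells chosen by Rgs5 carried other pericyte genes. Of the 561 cells, 299 (53.3%, exact binomial 95% interval 49.1 to 57.5%) had a UMI of Ndufa4l2 or Notch3, the other markers of the class. Among Pi16 cells, which should lack pericyte genes, 18.6% did, at a median depth of 7457 UMIs against 6655.5 for the Rgs5 cells, each counted over cells with at least 2000 UMIs. With these cells thinned to 2000 UMIs, 32.8% of Rgs5 cells, 41.8% of contractile cells, 12% of Ccl19-high cells and 7.13% of Pi16 cells had either marker. By age these shares were 36.7, 32.3, 28.2, 21.9 and 47.9% of Rgs5 cells, 20.5, 9.06, 16.0, 8.50 and 11.3% of Ccl19-high cells and 14.6, 11.03, 1.65, 2.60 and 0.719% of Pi16 cells. The Rgs5 cells had the highest share of these 3 classes at each age, and the exact intervals overlapped only with Ccl19-high cells at D24. At full depth the remaining 262 of the 561 cells showed neither, so the data bear out the label pericyte for some of the cells and not for all.

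The markers followed the Rgs5 count, which is given as a description since Rgs5 chose the cells. Ndufa4l2 or Notch3 was seen in 19.9% of 6739 cells with 0 Rgs5 UMIs that met the other limits, in 29.5% of 722 cells with 1 Rgs5 UMI, just outside the limit, and in 37.9% of 203 cells with 2, just inside it. The share was 50% at 3 to 4 UMIs, 58.8% at 5 to 9 and 86.3% of 95 cells at 10 or more. Of 9 pericyte genes (both markers with Kcnj8, Abcc9, Higd1b, Cox4i2, Cspg4, Mcam and Heyl) a mean of 1.62 was detected at 2 Rgs5 UMIs and 4.01 at 10 or more. No step in either measure separated the cells at the limit. By age the share with either marker was 62.8, 55.6, 40.0, 33.3 and 63.3%, lowest at D56, beside 31.4, 28.4, 12.5, 13.4 and 7.80% of cells with 0 Rgs5 UMIs, and all 24 cells of D10 with at least 10 Rgs5 UMIs had one.

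**Figure D1:**
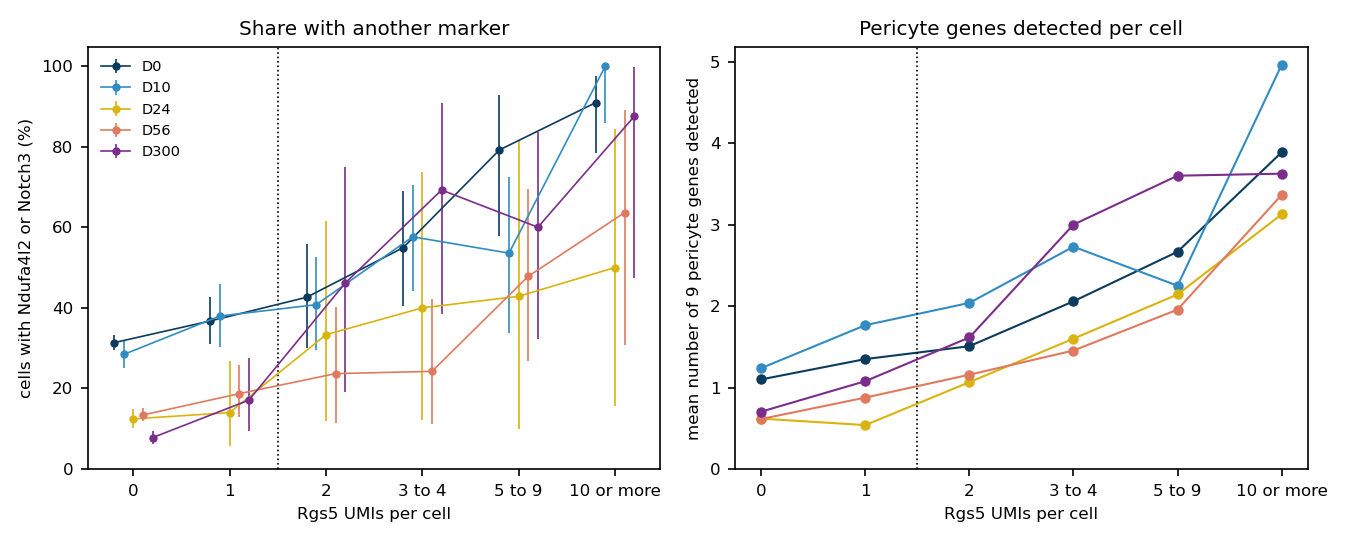
Pericyte genes by the number of Rgs5 UMIs in kept cells without Pecam1, contractile or high Ccl19 counts. Left, percent of cells with a UMI of Ndufa4l2 or Notch3 (y) by Rgs5 UMIs per cell (x), 1 line per age, bars showing exact binomial 95% intervals. Right, mean number of 9 pericyte genes detected. The dotted line marks the limit of 2 UMIs, and both measures climb past it without a break, to 86.3% and 4.01 genes at 10 or more UMIs over all ages.

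At the other limits, 30 cells had 2 contractile counts (73.3% with Ndufa4l2 or Notch3) and 13 otherwise eligible cells had 3 (69.2%). Ccl19 counts of 7 to 9 were found in 49 Rgs5 cells (28.6% with a marker), and counts of 10 to 12 in 26 cells left out (50%). A single Pecam1 count excluded 67 cells, of which 38.8% had a marker. In all, 1301 kept cells had at least 2 Rgs5 UMIs, and Pecam1 removed 377 of them, the contractile limit 93 and the Ccl19 limit 270.

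Markers of other cell types were measured in the same cells. Genes of adjacent-tissue fibroblasts were the most abundant at D0 and FRC genes from D10 on. The 14 contractile genes summed to 3337, 3862, 3783, 2917 and 3130 CPM in the Rgs5 cells. The 13 endothelial genes other than Pecam1 summed to 76.4, 95.4, 297, 279 and 272 CPM in the Rgs5 cells, to 62.8, 79.6, 70.5, 84.8 and 99.3 CPM in Ccl19-high cells and to 81.6, 95.4, 111, 96.4 and 73.4 CPM in contractile cells, so from D24 on the Rgs5 cells held the most of these classes. At most 2 of the 13 were at 0 in the Rgs5 cells at any age. Blood cell genes summed to 17.1, 10.0, 3.96, 8.17 and 138 CPM and Schwann cell genes to at most 15.7 CPM. The 11 FRC genes other than Ccl19 summed to 2840, 16220, 31738, 45783 and 28749 CPM, against 13010 to 86923 CPM in Ccl19-high cells. The 5 markers of fibroblasts from adjacent tissue (Mfap4, Igf1, Igf2, Sfrp1 and Prss35) summed to 5117, 949, 499, 178 and 60.5 CPM in the Rgs5 cells. At D0 this was above Pi16 (3571 CPM), contractile (3058 CPM) and Ccl19-high cells (534 CPM), and above the FRC sum of the Rgs5 cells themselves. The 10 markers of CD34-positive stromal cells summed to 2019, 1109, 1286, 1842 and 1330 CPM, against 3756 to 9398 CPM in Pi16 and 443 to 1468 CPM in Ccl19-high cells. The source of the fibroblast and endothelial transcripts was not tested. Pi16 cells, another fibroblastic class, carried Ccl21a at 138, 582, 850.4, 5546 and 1982 CPM.

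Rgs5, the gene that chose these cells, lies on chromosome 1 at 169655501-169695813 (plus strand, GRCm38, protein coding), close to Rgs4 at 169741477-169747642 on the minus strand. Notch3, the receptor through which endothelial Notch ligands act on mural cells, lies on chromosome 17 at 32120820-32166852 (minus strand). Kcnj8, the pore subunit of a potassium channel closed by ATP, lies on chromosome 6 at 142564837-142571614 (minus strand), beside Abcc9, its regulatory subunit, at 142587862-142702315 (minus strand). Ndufa4l2, a respiratory-chain protein induced by hypoxia, lies on chromosome 10 at 127514967-127517154 (plus strand). The 250 bases before the start of Rgs5, Notch3 and Kcnj8 are shown from RefSeq (GRCm38.p6) because Rgs5 chose the cells and the other two are known pericyte genes. They span chr1:169655251-169655500 (plus), chr17:32166891-32167140 (minus) and chr6:142571615-142571864 (minus).
Rgs5: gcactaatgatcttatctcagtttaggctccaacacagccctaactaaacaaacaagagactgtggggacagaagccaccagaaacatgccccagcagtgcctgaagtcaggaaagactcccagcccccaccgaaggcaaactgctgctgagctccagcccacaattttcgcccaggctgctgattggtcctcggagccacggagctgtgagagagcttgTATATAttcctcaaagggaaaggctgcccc
Notch3: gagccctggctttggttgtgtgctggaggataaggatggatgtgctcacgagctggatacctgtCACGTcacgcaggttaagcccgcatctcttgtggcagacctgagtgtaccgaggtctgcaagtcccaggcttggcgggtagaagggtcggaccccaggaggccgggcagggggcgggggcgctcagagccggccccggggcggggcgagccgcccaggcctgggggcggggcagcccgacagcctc
Kcnj8: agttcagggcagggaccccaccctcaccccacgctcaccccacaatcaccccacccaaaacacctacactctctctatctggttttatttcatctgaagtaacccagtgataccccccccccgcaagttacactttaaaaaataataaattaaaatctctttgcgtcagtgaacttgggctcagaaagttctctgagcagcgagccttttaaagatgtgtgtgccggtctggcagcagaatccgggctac
Capitals mark matches to TATATA in Rgs5 and to ACGTG on the other strand (CACGT), the core bound by hypoxia-inducible factors, in Notch3. TGGGAA, the core bound by the Notch effector RBPJ, was searched on both strands and is in none of the 3 windows, and Kcnj8 held none of the 3 motifs. Of 32851 promoters of the same length, 5.25% held TATATA, 16.6% ACGTG and 21.6% TGGGAA, so a match or its absence describes these letters only. The promoters of Ndufa4l2, Cox4i2 and Higd1b were not analysed here.

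Ndufa4l2 separated the Rgs5 cells from both fibroblastic classes. Its level in the Rgs5 cells was 236, 182, 189.9, 94.8 and 242 CPM, with 13.6, 4.92, 0, 3.73 and 2.88 CPM in Ccl19-high cells and 70.8, 80.4, 5.56, 10.7 and 1.43 CPM in Pi16 cells. Every age of the Rgs5 cells lay above every age of both other classes. Contractile cells had 234, 263, 48.7, 5.35 and 0 CPM, so they were close to the Rgs5 cells at D0, above them at D10 and below them from D24 on, where they numbered 16, 25 and 5 cells. Notch3 did not show this pattern. It was at 60.7, 93.1, 55.4, 86.6 and 147 CPM in the Rgs5 cells, 83.3, 46.5, 57.3, 40.0 and 36.0 CPM in Ccl19-high cells and 98.3, 164, 132, 42.8 and 183 CPM in contractile cells, and the ranges of the 3 classes overlapped.

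Kcnj8 stood at 117, 228, 98.9, 96.4 and 246 CPM in the Rgs5 cells and 99.6, 228, 63.9, 76.3 and 64.8 CPM in Ccl19-high cells. The classes shared the same value at D10 and were furthest apart at D300. Abcc9 was at 55.7, 125, 131, 108 and 177 CPM against 39.9, 54.7, 59.5, 82.9 and 76.3 CPM in Ccl19-high and 36.4, 45.4, 76.5, 91.0 and 110.03 CPM in contractile cells, and was higher in the Rgs5 cells than in either at each of the 5 ages. Cox4i2, the lung-type and hypoxia-linked isoform of cytochrome oxidase subunit 4, was at 48.6, 120.01, 47.5, 81.7 and 332 CPM against 14.7, 3.61, 1.10, 0.267 and 4.32 CPM in Ccl19-high cells. The groups did not overlap, and the D300 value was far above the other ages. Pdgfrb, the PDGF receptor of mural cells and fibroblasts, was at 95.7, 171, 107, 132 and 159.8 CPM against 53.5, 48.5, 56.2, 62.1 and 47.5 CPM in Ccl19-high and 110.2, 195, 146, 91.0 and 110.03 CPM in contractile cells. It separated the Rgs5 cells from the former and not from the latter.

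**Figure D2:**
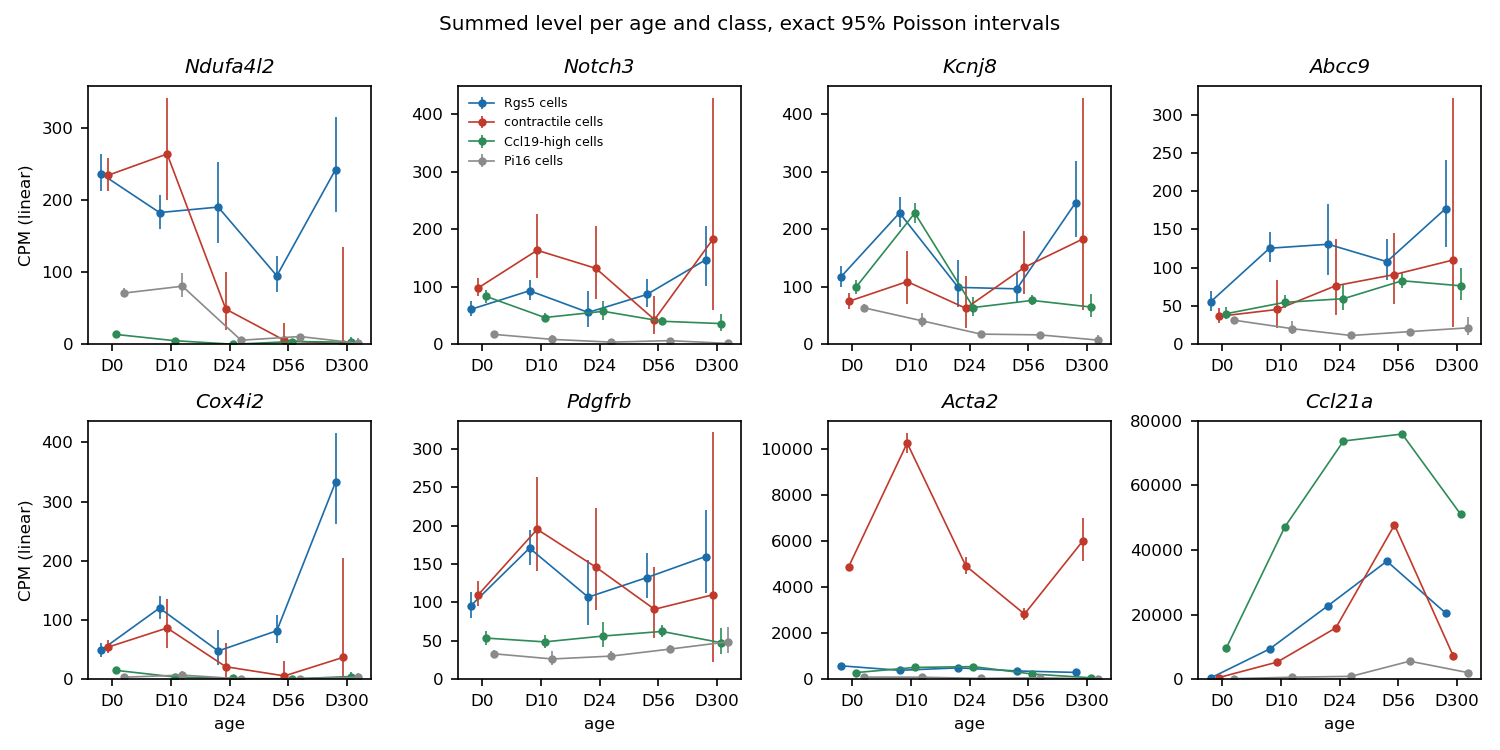
Levels of 8 genes by age in the 4 cell classes (y, CPM on a linear axis from 0; x, age). Points are summed counts of 1 sample per age and bars are exact Poisson 95% intervals, which cover counting error only. Ndufa4l2 and Cox4i2 are near 0 in Ccl19-high cells at every age, Acta2 is at 2822 to 10246 CPM in contractile cells and at most at 576 CPM in Rgs5 cells, and Ccl21a is highest in Ccl19-high cells at each age (9517 to 75938 CPM).

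To ask which genes distinguished the Rgs5 cells from Ccl19-high cells, the classes were compared over the 5 ages with age as a block (edgeR quasi-likelihood test, Benjamini-Hochberg adjusted p under 0.05, the 6 genes of the rule left out). Of 9605 genes, 548 differed (5.71%), 318 higher in the Rgs5 cells (3.31%) and 230 lower (2.39%). The Rgs5 cells were cut on Rgs5 and both classes on Ccl19, so genes that follow either differ in part by construction. The Ccl19-high class had no limit on Rgs5. It held the 270 cells with at least 2 Rgs5 UMIs that the Ccl19 limit had left out of the Rgs5 cells. Of 12 pericyte genes tested, 7 were higher and 0 lower, and the median log2 fold change was 1.05, beside 0.00 over all genes. They were Higd1b (log2 fold change 5.24, SE 0.51, adjusted p 0.000675), Ndufa4l2 (4.89, adjusted p 0.000107), Cox4i2 (4.28, adjusted p 0.00638), Mcam (2.80, adjusted p 0.0356), Heyl (2.35, adjusted p 0.00183), Pdgfrb (1.18, adjusted p 0.00695) and Abcc9 (0.75, adjusted p 0.0344). Mcam is an adhesion molecule of mural and endothelial cells, and Heyl a target of Notch signalling. Notch3 (0.58, adjusted p 0.325), Kcnj8 (0.44, adjusted p 0.342) and Vtn (-1.14, adjusted p 0.0587) did not pass. The call of Abcc9 was lost without D10, D24 or D300 (adjusted p 0.175, 0.109 and 0.0974), and that of Mcam without D10, D24, D300 or D56 (0.178, 0.0841, 0.0821 and 0.0887). The number of calls fell to 116 without D10, 216 without D24 and 330 without D300, and to 364 when D10 was restricted to cells with Xist and no Y-linked UMI.

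The respiratory-chain genes showed the contrast within isoform pairs. Of 9 tested, Ndufa4l2, Cox4i2 and Higd1b were higher in the Rgs5 cells and the other 6 were not called. Their ubiquitous partners did not pass, with a log2 fold change of -0.11 for Ndufa4 (adjusted p 0.668), -0.17 for Cox4i1 (adjusted p 0.451) and 0.17 for Higd1a (adjusted p 0.828). Of 12 hypoxia genes, 0 were higher and 1, the glucose transporter Slc2a1, was lower (a call lost without D10, adjusted p 0.0757), beside 3.31% of all genes higher and 2.39% lower.

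Receptors for vasoactive signals formed the next group. Of 13 tested, 5 were higher in the Rgs5 cells, beside 3.31% of all genes, and 0 lower, with a median log2 fold change of 0.89. Against contractile cells 0 of 10 tested passed in either direction, with a median of -0.02, beside 0.373% of all genes higher and 1.12% lower. Agtr1a, the angiotensin receptor, was at 35.0, 80.0, 43.5, 81.7 and 181 CPM against 7.75, 15.1, 7.71, 20.5 and 24.5 CPM in Ccl19-high cells (log2 fold change 2.23, SE 0.17, adjusted p 0.000172). It was above the Ccl19-high value at each age. Ednra and Ednrb, the endothelin receptors, were higher by 2.68 and 2.90 on the log2 scale (adjusted p 0.00296 and 0.029), and F2r, the thrombin receptor, by 2.94 (adjusted p 0.000765). Ednra was highest at D0, at 67.8, 50.8, 15.8, 14.7 and 25.9 CPM, and Ednrb at D300, at 18.6, 3.85, 59.4, 27.8 and 125 CPM, so the pair peaked at opposite ends of the series. F2r was at 113, 57.7, 103, 40.9 and 38.9 CPM. Mean CPM over the ages in contractile cells was 33.2 for Agtr1a, 40.2 for Ednra, 26.7 for Ednrb and 95.3 for F2r. In the Rgs5 cells it was 84.3, 35.0, 47.0 and 70.6. The Ednrb call was lost without D24, D300 or D56 (adjusted p 0.0753, 0.102 and 0.0823). The vasopressin receptor Avpr1a also passed (1.79, adjusted p 0.0405), on 4 to 16 counts per age, and its call was lost without D10, D24, D300 or D56 (adjusted p 0.0926 to 0.145).

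Rgs4, a neighbour of Rgs5 on chromosome 1 that also dampens G protein signals, was at 47.1, 40.8, 71.2, 88.2 and 764 CPM against 3.10, 2.62, 5.51, 6.13 and 28.8 CPM in Ccl19-high cells (log2 fold change 3.98, SE 0.19, adjusted p 1.82e-05). It was 1 of 3 RGS genes higher among 8 tested (3.31% of all genes), with Rgs2 (1.61, adjusted p 0.0458) and Rgs10 (1.66, adjusted p 0.0259). The call of Rgs2 was lost without D10, D24, D300 or D56 (adjusted p 0.0654 to 0.19), and that of Rgs10 without D0, D10, D24 or D300 (0.0541 to 0.152). Cyp4b1, a cytochrome P450 enzyme, was at 14.3, 55.4, 91.0, 83.3 and 432 CPM against 1.55, 1.31, 3.30, 5.60 and 7.20 CPM (log2 fold change 4.5, SE 0.31, adjusted p 9.71e-05). Both genes were above the Ccl19-high cells at each age and were highest at D300. Other genes of largest difference by the naming rule were Cpe, a carboxypeptidase that processes peptide hormones (3.84), the matrix-associated Sparcl1 (3.63), Aspn (3.36), Tinagl1 (3.09) and Adamts4 (2.62), and the protease inhibitor Serpine2 (3.29).

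Of 18 basement membrane genes tested, 6 were higher in the Rgs5 cells (3.31% of all genes), 0 were lower and 12 were not called, with a median log2 fold change of 0.53. Those higher were Col15a1 (2.84, adjusted p 0.000493), the laminin chains Lama2 (2.40) and Lamb2 (0.63), nidogen Nid1 (1.07), perlecan Hspg2 (1.27) and the laminin receptor chain Itga7 (2.55). Nid1 was at 303, 195, 135, 96.4 and 56.1 CPM against 81.3, 68.2, 89.2, 56.8 and 37.4 CPM, and at 413, 881, 782, 667 and 571 CPM in Pi16 cells. Pi16 cells had more of it at each age, a difference that was not tested. The type IV collagens Col4a1 (0.48, adjusted p 0.143) and Col4a2 (0.55, adjusted p 0.116) did not pass. Of 16 interstitial matrix genes, 2 were higher (Postn 1.45, Col5a1 1.01) and 1 lower (fibronectin Fn1 -1.25), beside 3.31% and 2.39% of all genes. Of 12 signals to endothelium, 3 were higher, beside the same 3.31%, namely Angpt2, a ligand of the endothelial receptor TIE2 (1.68), Tgfb1 (1.01) and Tgfb2 (2.57). Of 12 growth genes, imprinted except for Gpc3, 5 were higher (again beside 3.31%) and 0 lower, among them Igf2 (1.69) and H19 (2.27). Of 9 endothelial genes, Cdh5 (1.94) and Emcn (1.36) were higher, beside 3.31% of all genes. The part of the endothelial sums given above in the other differences was not tested. Markers of other fibroblasts moved with these groups. Of 8 CD34 stromal genes 2 were higher (Ackr3 and Cd248), beside 3.31% of all genes, with a median log2 fold change of 0.97. Of 5 genes of adjacent-tissue fibroblasts 2 were higher (Prss35 and Igf2, the latter also in the growth list), beside the same 3.31%, with a median of 0.77. The part of such cells in the matrix, basement membrane and imprinted values was not tested. Many of these calls were lost when 1 age was left out, while the log2 fold changes in those fits kept their sign, at 1.15 to 1.52 for Emcn, 0.91 to 1.02 for Tgfb1 and 1.89 to 2.60 for Tgfb2. Without D10 those of Nid1, Hspg2 and Angpt2 were lost (adjusted p 0.124, 0.0596 and 0.0803). Itga7 was lost without D24, D300 or D56 (0.0524 to 0.0717), Col5a1 without D10, D24 or D300 (0.0674 to 0.136) and Tgfb2 without D0, D10 or D24 (0.066 to 0.138). Lamb2 (0.0588 to 0.133), Tgfb1 (0.0579 to 0.11), Igf2 (0.0519 to 0.0689) and Cdh5 (0.0973 to 0.173) were lost without D10, D24, D300 or D56, and Emcn without any 1 age (0.0663 to 0.215).

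Lower in the Rgs5 cells were genes of the reticular programme, 4 of 11 FRC genes (2.39% of all genes) with 0 higher and a median log2 fold change of -0.86. Ccl21a, a chemokine that guides T cells and dendritic cells, was at 386, 9311, 22780, 36528 and 20488 CPM against 9517, 47133, 73765, 75938 and 51017 CPM (log2 fold change -2.23, SE 0.44, adjusted p 0.0216). Its counts are uncertain because near-identical copies of the gene exist. Even so the Rgs5 cells from D10 on held it at levels far above the Pi16 cells. Il7, a survival factor for lymphocytes (-1.55, adjusted p 0.000592), the BMP antagonist Grem1 (-1.62, adjusted p 0.0101) and Tnfsf11, which encodes RANKL (-1.29, adjusted p 0.0415) were the others. By the naming rule Bst1 (-2.45), Cd74 (-2.22), Clu (-2.17) and Lrat (-2.11) were lower by most, along with Gm2564, Dsc3, Serpina10, Msc and Csf2rb2 (-3.12 to -1.87). The calls of Ccl21a and Clu were lost without D10, D24 or D300 (Ccl21a adjusted p 0.0985, 0.0686 and 0.0516), those of Cd74 and Csf2rb2 without D10 (0.0669 and 0.0847), those of Serpina10 (0.11 and 0.0672) and Msc (0.0847 and 0.0618) without D10 or D24, and that of Tnfsf11 without D0, D24, D300 or D56 (0.0897 to 0.108). Cxcl12, a chemokine of perivascular and reticular cells, was at 1793, 5181, 6663, 6535 and 6395 CPM in the Rgs5 cells and 1091, 4336, 5522, 8022 and 7825 CPM in Ccl19-high cells (log2 fold change 0.02, SE 0.16, adjusted p 0.984).

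**Figure D3:**
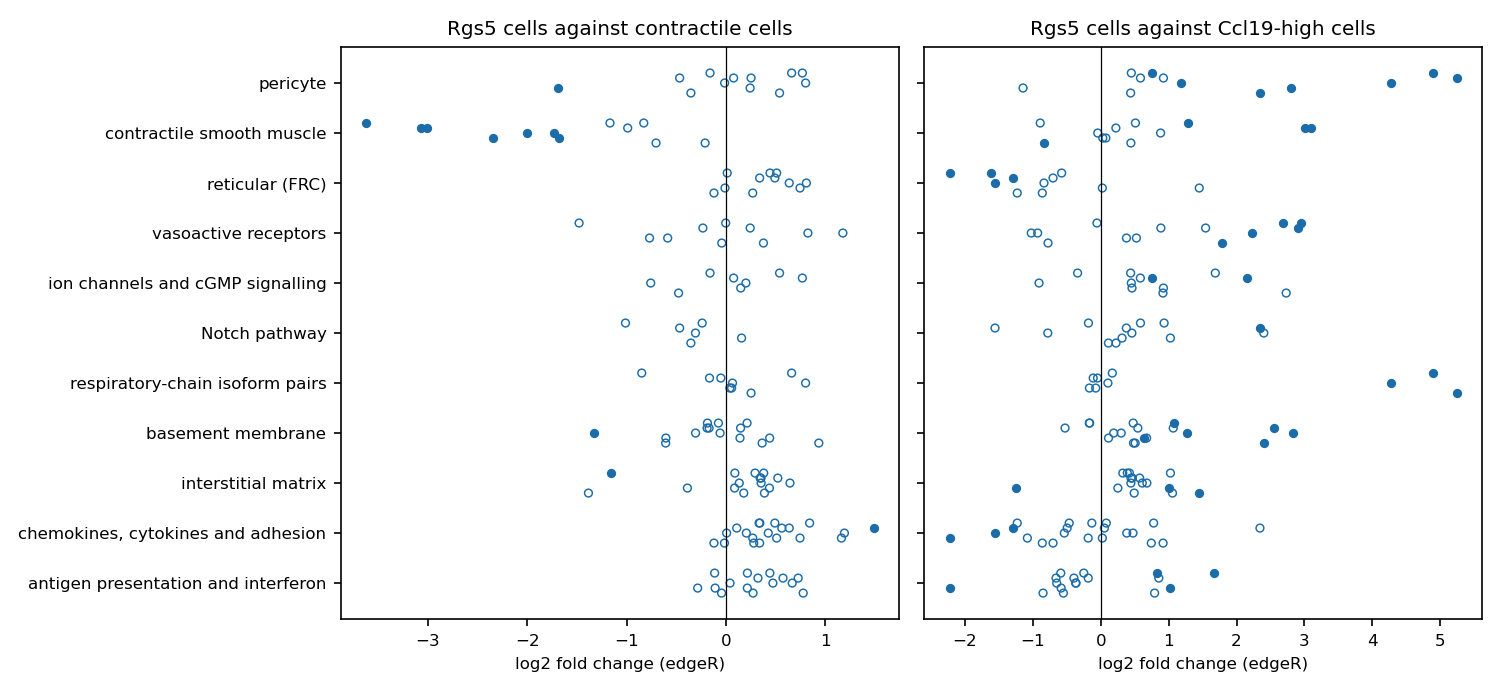
Log2 fold change of the Rgs5 cells against contractile cells and against Ccl19-high cells for each tested gene of 11 lists (y, list; x, log2 fold change, edgeR). Each point is 1 gene, filled where the adjusted p was under 0.05. Against Ccl19-high cells 7 of 12 pericyte genes and 5 of 13 vasoactive receptors are filled to the right, and against contractile cells 7 of 12 contractile genes are filled to the left.

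The comparison with contractile cells asked whether the Rgs5 cells differ from cells with smooth muscle genes in more than contraction. The contractile class had no limit on Rgs5 and held the 93 cells with at least 2 Rgs5 UMIs that the contractile limit had left out. It had no limit on Ccl19 either, and its 11 FRC genes summed to 2030, 7453, 24218, 55665 and 17714 CPM, against 2840, 16220, 31738, 45783 and 28749 CPM in the Rgs5 cells. What part these cells and genes had in the differences was not tested. By the same test 68 of 4556 genes differed (1.49%), 17 higher in the Rgs5 cells (0.373%) and 51 lower (1.12%). Contractile genes led the decrease, with 7 of 12 lower, 0 higher and a median log2 fold change of -1.70. The rule cut on Myh11, Actg2 and Cnn1, which belong to the same programme, so this difference describes how the classes were cut. Acta2, smooth muscle actin, was at 576, 382, 487, 353 and 289 CPM in the Rgs5 cells and 4863, 10246, 4916, 2822 and 6015 CPM in contractile cells (log2 fold change -3.62, SE 0.27, adjusted p 2.40e-05). The classes did not overlap at any pair of ages. Tagln (-3.01, adjusted p 0.000124), Myl9 (-2.00, adjusted p 3.03e-05), Tpm2 (-2.34), Tpm1 (-1.73), Lmod1 (-3.07) and the myosin kinase Mylk (-1.68) completed the group. Desmin, encoded by Des, was at 211, 498, 657, 449 and 462 CPM and 232, 581, 876, 530.1 and 587 CPM and did not pass (log2 fold change -0.21, SE 0.15, adjusted p 0.743). In the Rgs5 cells 14 contractile genes summed to 2917 to 3862 CPM over the ages, against 9446 to 31402 CPM in contractile cells.

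Pericyte genes did not separate these classes as a group. Of 12 tested, 0 were higher in the Rgs5 cells and 1 lower, with a median log2 fold change of 0.16 beside 0.03 over all genes. The gene that passed was Mcam, at 20.7, 30.8, 3.96, 19.6 and 47.5 CPM against 66.7, 164, 55.6, 16.1 and 36.7 CPM (log2 fold change -1.69, SE 0.36, adjusted p 0.0362). It was lower at 3 of 5 ages, and the call was lost without D0 or D10 (adjusted p 0.331 and 0.435). Ndufa4l2 (0.66, SE 0.42, adjusted p 0.692), Cox4i2 (0.80, SE 0.37, adjusted p 0.517) and Abcc9 (0.77, SE 0.22, adjusted p 0.135) had positive differences that did not pass. Kcnj8 (0.54, SE 0.23, adjusted p 0.432) likewise did not pass. Several groups with genes higher than in Ccl19-high cells had 0 higher here, beside 0.373% of all genes. Of 10 vasoactive receptors, 5 RGS genes, 9 respiratory-chain genes and 12 growth genes tested, 0 passed in either direction. Of 15 basement membrane genes and 8 signals to endothelium, 0 were higher and 1 of each was lower. Of 8 CD34 stromal genes 2 were higher. The contractile class held 5 cells and 27266 UMIs at D300, so its values at that age rest on few counts. The size of difference that could be detected was not tested.

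Among genes higher in the Rgs5 cells than in contractile cells, several were carried by the fibroblastic classes too. Steap4, a metalloreductase, was at 52.1, 420.03, 427, 413 and 721 CPM against 16.1, 209, 167, 246 and 440.1 CPM (log2 fold change 1.16, SE 0.18, adjusted p 0.00494), and Ccl19-high cells held 159.6, 246, 192, 381 and 489 CPM. The Rgs5 cells were above the contractile cells at each age, and the call was lost without D0 (adjusted p 0.0565). Mmp3, a matrix protease, was at 0.714, 3.85, 142, 356 and 501 CPM against 0, 0, 27.8, 118 and 73.4 CPM (log2 fold change 2.04, SE 0.31, adjusted p 0.00418), and reached 27.8 CPM or more in both classes from D24 on. Itm2a, a membrane protein, was at 4222, 939, 142, 108 and 13.0 CPM against 2053, 254, 83.4, 32.1 and 0 CPM (log2 fold change 1.38, SE 0.23, adjusted p 0.00632), while Pi16 cells had 14133, 5627, 1814, 374 and 125 CPM. By the naming rule Cd55 (1.98), Cd14 (1.45), Mndal (1.34), Pi16 (1.34), AW112010 (1.17), Ly6a (1.02) and Gas1 (0.95) followed. Each of these 7 calls was lost without at least 1 age, with adjusted p up to 0.416 for Pi16 without D0. Tnfsf13b, which encodes the B cell factor BAFF, was at 1.43, 16.9, 83.1, 116 and 159.8 CPM against 1.19, 4.54, 27.8, 37.5 and 73.4 CPM (log2 fold change 1.49, SE 0.33, adjusted p 0.0429), a call lost without any 1 of the 5 ages (adjusted p 0.0618 to 0.341). Tgfb2 (-1.64), the collagen receptor chain Itga1 (-1.32) and tenascin Tnc (-1.16) were lower, along with Map3k7cl, Ramp1, Nexn, Map1b and Cav1 (-3.10 to -2.01), of which the call of Ramp1 was lost without D56 (adjusted p 0.0694). The call of Itga1 was lost without D0 or D56 (adjusted p 0.196 and 0.117), and that of Tnc without D0, D10 or D24 (0.176, 0.276 and 0.0519). The number of calls was 33 without D0, 42 without D10 and 40 without D56.

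The cells differed among themselves along the Rgs5 count. Cells with at least 5 Rgs5 UMIs (192 cells, 68, 52, 15, 34 and 23 by age) are set beside those with 2 to 4 (369 cells) as a description with no test, since Rgs5 chose the cells. Ndufa4l2 was at 448, 503, 411, 179 and 307 CPM in the former and 103, 79.3, 62.4, 53.6 and 167 CPM in the latter. Cox4i2 was at 99.9, 408, 129.7, 228 and 412 CPM and 16.3, 27.4, 0, 9.75 and 241 CPM. The 0 at D24 allows up to 18.7 CPM, the level of 3 counts. Both were higher in the cells with more Rgs5 at each age. Kcnj8 was at 131, 297, 184, 134 and 258 CPM against 108, 206, 49.9, 78.0 and 232 CPM and Notch3 at 102, 177, 32.4, 159 and 169.5 CPM against 34.9, 66.1, 68.7, 51.2 and 121 CPM, the latter lower at D24, where it had 3 counts in the 15 cells. Esam, an adhesion molecule of vessel walls chosen after its values were seen, was at 48.1, 161, 119, 104 and 299 CPM against 5.81, 10.2, 6.24, 29.2 and 139 CPM. The 13 pericyte genes other than Rgs5 summed to 1551, 3194, 2703, 2762 and 2898 CPM in the cells with more Rgs5 and to 645, 1708, 1635, 1765 and 2339 CPM in the others. Ccl21a was at 246, 12539, 39222, 40318 and 20739 CPM against 473, 8273, 13288, 34664 and 20201 CPM, lower at D0 in the cells with more Rgs5 and higher at the other ages.

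In age order, Rgs5 cells made up 4.85, 9.51, 2.33, 2.85 and 2.32% of kept cells. The exact binomial 95% intervals ran from 4.18 to 5.59%, 8.25 to 10.9%, 1.67 to 3.16%, 2.34 to 3.44% and 1.72 to 3.05%. The value at D10 was the highest, and the intervals of the 3 later ages overlapped. D0 came next under the rule as given, and its place at equal depth depended on how the cells were thinned. With every cell thinned to 2000 UMIs before the rule was applied, the shares were 2.42, 4.84, 1.64, 2.49 and 2.43%. D10 was again the highest and D24 the lowest, and the intervals of D0, D24, D56 and D300 overlapped. That setting also let in cells whose Pecam1 counts were lost by thinning, 6, 6, 7, 13 and 13 by age. With 1 sample per age the order has no replicate check. The share depends on the rule and on depth, which fell with age. At a limit of 5 Rgs5 UMIs the shares were 1.83, 2.64, 0.873, 0.923 and 1.09%, and counting only cells with Ndufa4l2 or Notch3 they were 3.04, 5.29, 0.931, 0.951 and 1.47%. With Rgs5 alone thinned to 2000 UMIs per cell, a setting added after the data were seen, they were 1.75, 3.62, 0.937, 1.43 and 1.62%. D10 stayed highest and D24 lowest in the latter, and D0 came next again, with D300 near it. Of kept cells without Pecam1 the shares were 5.72, 12.9, 3.87, 4.08 and 3.65%.

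**Figure D4:**
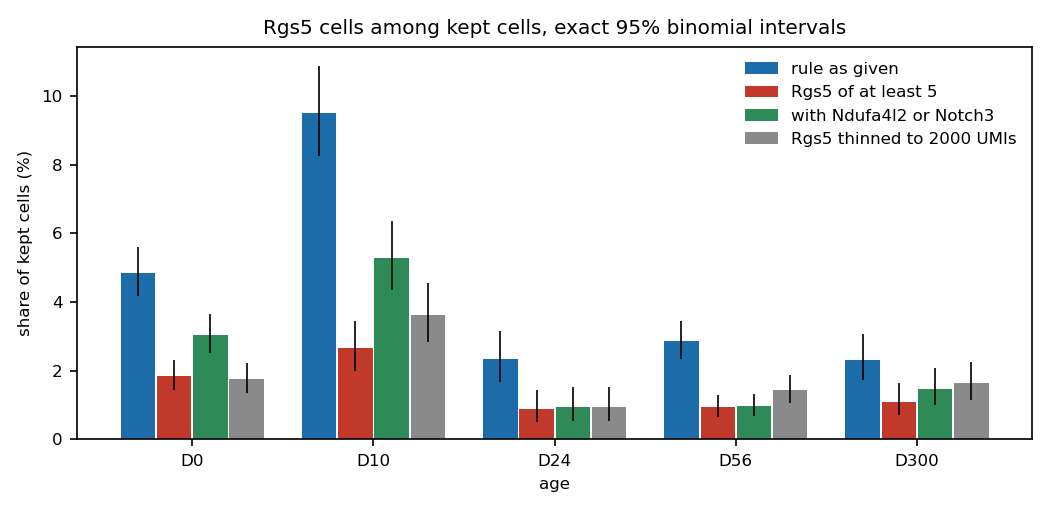
Share of Rgs5 cells among kept cells (y, percent, from 0) at the 5 ages (x) under 4 definitions, which are the rule as given, at least 5 Rgs5 UMIs, a UMI of Ndufa4l2 or Notch3, and Rgs5 thinned to 2000 UMIs per cell. Bars are 1 sample per age with exact binomial 95% intervals. D10 is highest under each of the 4, at 9.51% under the rule as given.

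Cells with transcripts of the cell cycle were found mainly at D0 and D10. At least 2 of 6 cycling genes were detected in 29 of 180 Rgs5 cells at D0 (16.1%), 10 of 187 at D10 (5.35%), 1 of 40 at D24, 0 of 105 at D56 and 0 of 49 at D300. Read as 3 cells, the zeros stand for shares of 2.86% of 105 cells and 6.12% of 49 cells, and the upper limits of their exact binomial 95% intervals were 3.45% and 7.25%. Contractile cells had 20.7% at D0, then 0 of 31, 2 of 16, 0 of 25 and 0 of 5 cells. Ccl19-high cells had 31.7, 9.36, 5.00, 0.224 and 0%, so the early cycling was not particular to the Rgs5 cells.

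The Rgs5 cells of early ages (D0, D10 and D24) were then compared with adult ages (D56 and D300). Of 7135 genes 0 passed (edgeR, 0%), with 1041 at an unadjusted p under 0.05, and DESeq2 called 84. The lowest p values were those of Cyth1, a regulator of ARF GTPases, at 121, 135, 154, 6.54 and 4.32 CPM (log2 fold change 4.27, SE 0.39, adjusted p 0.108), Npy1r, the neuropeptide Y receptor, at 1.43, 1.54, 3.96, 32.7 and 51.8 CPM (log2 fold change -4.67, SE 0.58, adjusted p 0.223), and Gm9843 at 90.0, 77.7, 75.2, 239 and 220.2 CPM (log2 fold change -1.73, SE 0.22, adjusted p 0.223). For Cyth1 the early ages did not overlap the adult ones, and over all kept cells it took the same course. Npy1r and Gm9843 were likewise higher at the adult ages over all kept cells. They were at 0.917, 1.41, 1.90, 14.4 and 19.8 CPM and at 89.3, 89.2, 88.6, 234 and 345 CPM. Without D24 the fit called 61 genes. The single ages are therefore described against D56, with conditional exact intervals that cover counting error only. A gene counts as called where it had at least 100 CPM in the higher age, differed at least 2-fold and had an interval that left out 1.

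By this rule 592 of 1791 genes (33.1%) differed between D0 and D56, 346 higher and 246 lower. At D10 365 of 1706 did (21.4%), at D24 163 of 1568 (10.4%, 6.31% higher) and at D300 189 of 1482 (12.8%, 7.15% higher). The median gene lay above D56 by 0.40, 0.35, 0.23 and 0.00 on the log2 scale. With TMM scaling the values of all genes shifted by -0.25, -0.27, -0.12 and -0.0023 at D0, D10, D24 and D300. The split of higher and lower calls then became 205 and 326 at D0, 81 and 257 at D10 against 177 and 188 without it, 74 and 95 at D24 against 99 and 64, and 117 and 97 at D300 against 106 and 83.

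Imprinted genes of fetal growth stood out at D0. For lists, every member was counted by the same fold and interval with no limit on the level, a rule added after the data were seen, under which genes with few counts can hardly be called. It called 17.1% of genes at D0, 11.8% at D10, 4.4% at D24 and 4.83% at D300. All 12 genes of the growth list, imprinted except for the X-linked Gpc3, were higher at D0, beside 9.89% of 14830 genes. Dlk1 had 4465 counts at D0 (3188 CPM) and 203 at D10 (156 CPM), and 0 at D24, D56 and D300, so D0 was at least 650-fold above D56 with the latter at 3 counts per age. H19 was at 1507, 145, 15.8, 3.27 and 0 CPM, Mest at 1257, 496, 39.6, 19.6 and 17.3 CPM and Meg3 at 4925, 1168, 372, 173 and 47.5 CPM. Each was highest at D0 and lower at every later age than at D0. At D10 10 of 12 were higher than at D56, beside 6.83% of genes (8 of 12 with TMM scaling). At D24 2 were higher, beside 2.79%, and 1 lower, beside 1.61% (1 and 1 with TMM scaling). At D300 3 of 12 were lower, beside 1.9%. Other classes took a like course, with Dlk1 at 781, 85.2, 3.30, 0.267 and 7.20 CPM in Ccl19-high and 7498, 1101, 80.0, 10.2 and 1.43 CPM in Pi16 cells.

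Interstitial matrix genes were at their highest in early life. Of 16, 12 were higher at D0 than at D56 (9.89% of all genes), 10 at D10 (6.83%) and 6 at D24 (2.79%), with 0 lower, and 10 were lower at D300 (1.9%). With TMM scaling 10, 10 and 5 were higher. Col1a1, the main chain of type I collagen, was at 9276, 5195, 2691, 740.2 and 246 CPM, so each age lay below the one before. Col3a1 was at 9032, 9726, 4609.8, 1681 and 475 CPM and Eln, elastin, at 6758, 403, 261, 129 and 43.2 CPM, of which the latter dropped by most between D0 and D10. Dcn, a small proteoglycan, did not follow, at 11778, 16173, 9465, 12232 and 9642 CPM. Ccl19-high cells had Col1a1 at 2874, 3399.9, 1512, 736 and 394 CPM and contractile cells at 5790.4, 3892, 2350.2, 959 and 183 CPM. Mfap4, an elastic fibre gene named by the rule and a marker of fibroblasts from adjacent tissue, was at 4204, 561, 293, 32.7 and 0 CPM, and all 5 genes of that marker list were higher at D0 (4 with TMM scaling). Its part in the matrix and imprinted values at D0 was not tested. Mgp, an inhibitor of calcification, was at 1049, 1001, 989, 435 and 17.3 CPM and was 25.2-fold (95% interval 9.71 to 93.0) lower at D300 than at D56.

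Genes of antigen presentation and the interferon response, held as 1 list, took the opposite course. Of 17, 12 were lower at D0 than at D56, beside 7.17% of all genes, and 0 higher. H2-D1, a class I heavy chain, was at 570.5, 2526, 6466, 6984 and 8213 CPM and B2m, its partner, at 1073, 3423, 5045, 6307 and 6991 CPM. Both were higher at each age than at the one before. The class II invariant chain Cd74 was at 11.4, 90.0, 206, 198 and 419 CPM, and H2-K1 at 358, 1213, 2453, 2275 and 3834 CPM. Class I heavy chains are close copies, so counts may be split between H2-D1 and H2-K1. Of the 17 genes of the list, 5 were lower at D10 (4.92% of genes, 8 with TMM scaling), 1 at D24 (1.61%), and 4 were higher at D300 (2.92%). Of 10 blood cell genes 4 were also higher at D300 than at D56 (2.92%), with sums of 138 and 8.17 CPM. Their part in the D300 values was not tested. Ccl19-high cells carried H2-D1 at 1418, 2905, 5773, 6609 and 8710.4 CPM, more than the Rgs5 cells at D0 and D10 and about the same later.

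Chemokine, cytokine and adhesion genes were also lower at D0, 19 of 21 (7.17% of all genes) with 1 higher. At D10 10 of 21 were lower (4.92%) and 3 higher (6.83%). Cxcl12 was at 1793, 5181, 6663, 6535 and 6395 CPM, close to its adult level from D24 on, whereas Ccl21a continued to climb until D56. Il6, at 97.8, 102, 1939, 1302 and 1313 CPM, and Ccl2, at 883, 1294, 3553, 4070.4 and 3346 CPM, were high from D24 on. Cxcl13, a chemokine for B cells, was the exception that was higher at D0, at 193, 212, 3.96, 11.4 and 30.2 CPM. The FRC list went the same way, with 9 of 11 lower, beside the same 7.17%, and 1 higher at D0. The dissociation genes given above differed in the same direction, with 8 of 16 lower at D0 (7.17%, 12 with TMM scaling), 13 of 16 at D10 (4.92%) and 3 of 16 at D24 (1.61%), and with 4 higher (2.92%) and 2 lower (1.9%) at D300. Over all kept cells Ccl2 was at 824, 636, 1861, 2556 and 2723 CPM and Il6 at 74.0, 42.5, 278, 479 and 589 CPM. Cxcl12 was at 1076, 3696, 2379, 4382 and 4882 CPM there and Cxcl13 at 91.6, 148, 28.7, 32.4 and 15.9 CPM. Each of these genes differed between D0 and D56 in the same direction as in the Rgs5 cells.

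Other genes named by the ratio to D56 were partly shared by all classes or rested on few cells. Gm8797 was 37.2-fold (95% interval 26.8 to 53.1) higher at D56 than at D10, but at D56 it was at 899.6 CPM in contractile, 894 CPM in Ccl19-high and 847 CPM in Pi16 cells against 1088 CPM in the Rgs5 cells, so it marked the age in each of the 4 classes. The acinar genes Ctrb1 and Try4 were among the highest at D24. Haus8 and Saa1 at D24 and Car3, Saa3, Cfd and Cck at D300 came from 1 to 4 cells. Inmt, a methyltransferase, was 142-fold (95% interval 71.6 to 331) higher at D56 than at D0. Mmp3, Il4i1 and Lrg1 had 1 count each at D0 against 218, 109 and 67 at D56. Mmp3 at D10, Efemp1 and Cxcl5 at D24, Mfap5 at D300 and Coch at D10 were lower than at D56. Ptx3, at 12.1, 8.46, 47.5, 386 and 0 CPM, was carried by 17 of 105 cells at D56. Nrep, 2810417H13Rik and Fbn2 were higher at D10.

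At D300 a further set of genes of the Rgs5 cells stood above the other ages. Rgs4 was 8.66-fold (95% interval 6.35 to 12) above D56 and was found in 26 of 49 cells (53.1%). In Pi16 cells of that age 2.16% carried it, at a median depth of 4964 UMIs against 3933. Adamts4, a matrix protease, was at 35.0, 25.4, 98.9, 113 and 807 CPM, 7.16-fold (95% interval 5.41 to 9.58) above D56, in 55.1% of Rgs5 cells and 9.35% of Pi16 cells. Cyp4b1 was higher by 5.18-fold (95% interval 3.66 to 7.41), and was found in 57.1% of Rgs5 cells and 10.1% of Pi16 cells. Cox4i2 was higher by 4.07-fold (95% interval 2.81 to 5.93), in 38.8% and 1.44% of cells. Over all kept cells the levels at D56 and D300 were 25.2 and 70.3 CPM for Rgs4, 88.9 and 133 CPM for Adamts4, 59.2 and 63.1 CPM for Cyp4b1 and 5.11 and 24.3 CPM for Cox4i2, higher at D300 for each gene.

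Other genes of vessel walls and their signals, chosen here after their values were seen, were also higher at D300. Rgs16 was at 87.8, 168, 269, 271 and 1071 CPM, 3.95-fold (95% interval 3.23 to 4.83) above D56, with 98.3, 345, 167, 102 and 1357 CPM in contractile cells and 153 and 401 CPM over all kept cells at D56 and D300. Ednrb was higher by 4.51-fold (95% interval 2.40 to 8.74), Esam by 4.16-fold (95% interval 2.64 to 6.65) and the Notch target Nrarp by 4.45-fold (95% interval 2.45 to 8.31). Of the 13 pericyte genes other than Rgs5, 3 were called higher and 0 lower, beside 2.92% of all genes, with Kcnj8 higher by 2.55-fold (95% interval 1.74 to 3.74), Ndufa4l2 by 2.55-fold (95% interval 1.74 to 3.75) and Cox4i2 as above. The make-up of the class differed between these ages, since the share of Rgs5 cells with Ndufa4l2 or Notch3 was 33.3% at D56, the lowest, and 63.3% at D300. In cells with at least 5 Rgs5 UMIs the levels at D56 and D300 were 228 and 412 CPM for Cox4i2, 179 and 307 CPM for Ndufa4l2 and 134 and 258 CPM for Kcnj8. In those with 2 to 4 they were 9.75 and 241 CPM, 53.6 and 167 CPM, and 78.0 and 232 CPM. What part the make-up had in the pericyte values was not tested. The summed level of the 13 pericyte genes other than Rgs5 was 995, 2069, 2026, 2093 and 2638 CPM, against 1044, 1816, 2299, 1928 and 1408 CPM in Ccl19-high and 1080, 1930, 1620, 2303 and 2091 CPM in contractile cells. It was above the sum in Ccl19-high cells at D10, D56 and D300 and below it at D0 and D24, and above that in contractile cells at D10, D24 and D300. The early response gene Irf1, at 223, 118, 127, 284 and 691 CPM, was also highest at D300, the age with the highest sum of dissociation genes, and the part of dissociation in the other values was not tested.

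**Figure D5:**
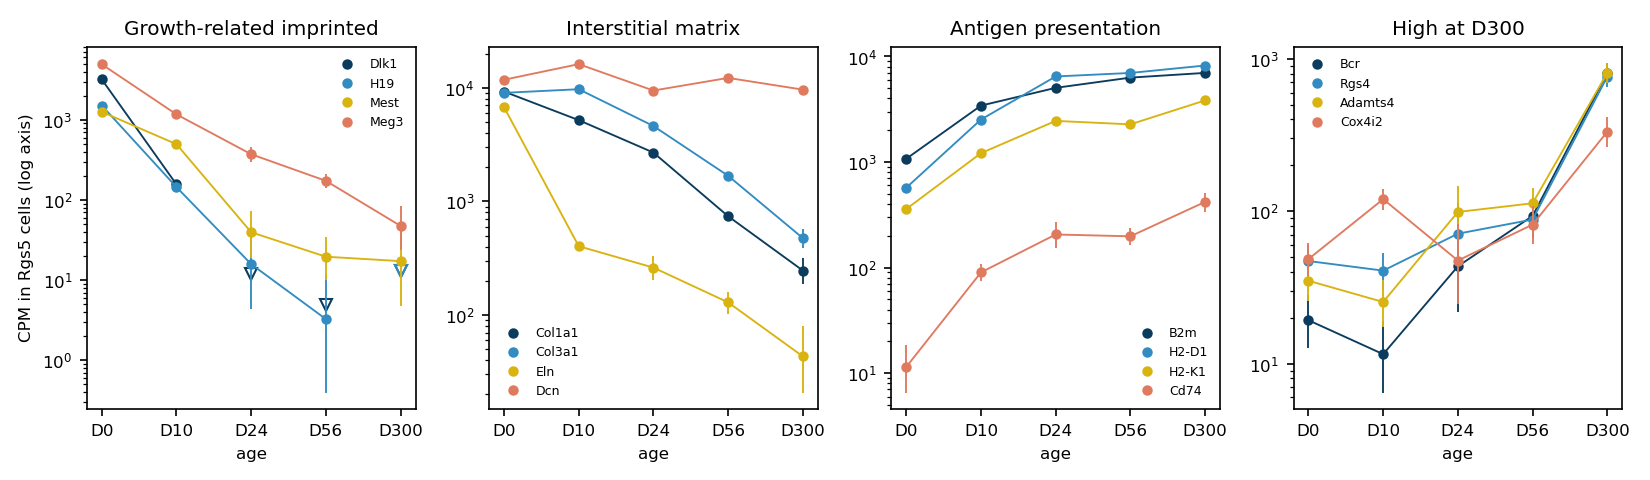
Levels in Rgs5 cells by age (x) of imprinted genes (Dlk1, H19, Mest, Meg3), matrix genes (Col1a1, Col3a1, Eln, Dcn), antigen presentation genes (B2m, H2-D1, H2-K1, Cd74) and genes high at D300 (Bcr, Rgs4, Adamts4, Cox4i2, chosen after their values were seen), in CPM on a log axis. Points are 1 sample per age with exact Poisson 95% intervals, and open triangles mark the level of 3 counts where 0 were seen. Col1a1 falls from 9276 to 246 CPM and Bcr climbs from 19.3 to 807 CPM.

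Last, it was tested whether the difference between early and adult ages was itself different in Rgs5 and contractile cells. A single gene passed of 4556 (0.0219%), with 204 at an unadjusted p under 0.05. It was Bcr, which encodes a kinase and GTPase regulator known from its fusion with ABL (log2 fold change -5.67, SE 0.83, adjusted p 0.0445). In the Rgs5 cells Bcr was at 19.3, 11.5, 43.5, 93.1 and 807 CPM and in contractile cells at 109.6, 99.9, 41.7, 16.1 and 36.7 CPM. The former climbed steeply at D300, where 25 of 49 cells carried it, and the latter were highest at D0 and D10. Ccl19-high cells had 9.68, 7.87, 14.3, 13.6 and 60.5 CPM and Pi16 cells 9.31, 6.77, 15.1, 12.7 and 15.7 CPM, with 7.91% of Pi16 cells at D300 carrying it. Over all kept cells Bcr was at 23.5, 22.5, 82.7, 47.3 and 142 CPM, also highest at D300. The contractile value at D300 was 1 count in 5 cells. The call was made in 7 of 14 alternatives and was lost without D0, D300 or D56 (adjusted p 0.133, 0.106 and 0.132).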

How the data were processed

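The values deposited by the authors were UMI counts, not normalized, in 1 merged matrix of 27998 genes and 17692 cells. The submitters' processing notes name Cell Ranger 2.0.0, STAR, Seurat 2.3.3 and build mm10. Every column was used and assigned to an age by its name. Counts were summed per age and class in Python 3.11.15 (numpy 2.4.6, scipy 1.17.1). CPM carries exact Poisson and shares exact binomial intervals at 95%, for counting error only. Classes were compared with edgeR 4.0.16 (R 4.3.3, quasi-likelihood test, filterByExpr, TMM, age as block, Benjamini-Hochberg adjustment), with the 5 ages as replicates, and DESeq2 1.42.0 as an alternative. The tests were tested on simulated data. Scrublet in scanpy 1.11.5 marked 68 cells (0.384%), too few to use, so no doublet was removed. The members, lists and tests were chosen with earlier results of these data known. Depth per age ranged from 231593 to 1400528 UMIs in the Rgs5 cells, so D24 and D300 are the least precise.

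Genes were named if they belonged to a list or met a rule. Between classes the rule took those called, with the same direction at each age and a mean of at least 100 CPM in the higher class, the 10 of largest and 10 of lowest log2 fold change. For early against adult ages and the interaction it took called genes, or else the 3 of lowest p, and for each age against D56 the 4 highest and 4 lowest ratios at 100 CPM or more with an interval leaving out 1. Gene positions come from GENCODE vM21 (GRCm38) and promoters from RefSeq (GRCm38.p6). Since each age was 1 sample, p-values measure the spread between ages, which is not a spread between animals of 1 age.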

Additional observations from a re-analysis of the deposited data

Results flagged for a closer look

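Bcr was singled out because its difference between early and adult ages differed between Rgs5 cells and contractile cells by a test of that difference, with a value of -5.67 on the log2 scale (edgeR, early minus adult in Rgs5 cells minus the same in contractile cells, adjusted p 0.0445). Over the alternatives the value lay between -7.08 and -4.77. At D300 the Rgs5 cells held 187 counts of Bcr in 25 of 49 cells and the contractile cells 1 count in 5 cells.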

How the results depend on the processing

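No paired analysis was possible because the cell names do not carry the replicate numbers that D56 and D300 share. The class comparisons paired the classes within each age through the age term, and their calls without it are given below.

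Shares (D0, D10, D24, D56, D300) were 3.2, 5.64, 1.45, 1.82 and 1.70% at 3 or more Rgs5 UMIs, and 1.83, 2.64, 0.873, 0.923 and 1.09% at 5 or more. At Ccl19 of at most 2 they were 7.52, 1.51, 1.44 and 1.65% from D10 on. With no contractile count they were 3.64, 8.03 and 2.15% at D0, D10 and D56, and with all cells thinned to 2000 UMIs 2.42, 4.84, 1.64, 2.49 and 2.43%. There D0 was no longer above D56 and D300, and 6, 13 and 13 cells let in at these 3 ages had Pecam1 counts before thinning. With only Rgs5 thinned the shares were 1.75, 3.62, 0.937, 1.43 and 1.62%, where D0 was above both. Of cells without Pecam1 they were 5.72, 12.9, 3.87, 4.08 and 3.65%, with Ndufa4l2 or Notch3 3.04, 5.29, 0.931, 0.951 and 1.47%, and with both restrictions 3.59, 7.19, 1.55 and 1.36% from D0 to D56.

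Calls against contractile cells (68) were 305 with a contractile sum of at least 10 (4, 3 and 1 cells at D24, D56 and D300), 43 in marker-positive cells, 8 with no age term and 206 with no filter on low counts, and 33 to 89 without 1 age. Against Ccl19-high cells (548) they were 364 with Xist-only cells at D10, 840 marker-positive, 47 with no age term, 1240 unfiltered, and 116 to 465 without 1 age. Early against adult (0) gave 84 with DESeq2, 9 at 5 or more Rgs5 UMIs, 574 unfiltered, 250 for a slope on the log2 of day plus 1, and 0 to 61 without 1 age. The interaction (1) gave 2 with Xist-only cells, 0 with DESeq2, with its size factors, with no cell filter or without high doublet scores, 17 with a contractile sum of at least 10, 15 unfiltered, and 0 to 4 without 1 age. Against D56, D24 (163) gave 273 at Ccl19 of at most 2, 373 at 5 or more Rgs5 UMIs and 319 marker-positive, and D300 (189) gave 331 and 311 for the first and last. With no limit on the level, D0 (592), D10 (365), D24 and D300 gave 2530, 1667, 574 and 629, since more genes were counted. The causes were not tested.

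The sign changed against contractile cells for Cd14 at 5 or more Rgs5 UMIs (-0.24), Notch3 there (0.15), and Pdgfrb (-0.01), which was at 0.29 (Ccl19 limit), 0.11 (Xist), 0.49 (Rgs5 limit), -0.13 to 0.075 without 1 age (above 0 without D0, D10 or D24), 0.58 (marker-positive), 0.092 (no age term), 0.038 (no cell filter), 0.065 (unfiltered) and 0.028 (without high doublet scores). It changed at D24 for Ptx3 in marker-positive cells (0.0098). Des was at 0.35 with a contractile sum of at least 10, and Tnfsf13b at -0.11 marker-positive. Against Ccl19-high cells Cxcl12 was at -0.55 (Ccl19 limit), -0.073 (Rgs5 limit), -0.72 (marker-positive), -0.14 (no age term), -0.041 (no cell filter), -0.050 (unfiltered) and -0.12 to 0.13 without 1 age, and Higd1a at -0.28 to 0.33 without 1 age. Of values for single genes, 1501 kept their direction and side of the threshold, 48 gained and 223 lost a call, and 48 moved by more than their interval. The marker-positive cells and the settings with only Rgs5 thinned and with no limit on the level were chosen after seeing the data. Depth limits D300 most, with 49 Rgs5 cells and 5 contractile cells.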
